A study of Mus musculus with 73 samples.

Results

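Mouse mammary tumors that carry the receptor transgene MMTV-her2/neu were compared with tumors that carry MMTV-ras, on 10 of the 73 microarrays of the series. The 10 arrays were taken by their model label, 5 arrays of each model, and belong to a set of 38 arrays that each set Cy5-labelled tumor RNA against Cy3-labelled normal gland RNA of wild-type mice on the same slide. Both models and their normal glands are FVB, and in both the long terminal repeat of mouse mammary tumor virus drives the transgene, mostly in mammary epithelium and more strongly under lactogenic hormones. The labels name no treatment, and do not state the age, parity or number of the mice, which Ras gene the MMTV-ras animals carry, whether a sample is 1 animal, or whether the arrays share normal gland RNA. P-values therefore measure the spread between samples, pooled over all 38 arrays, and the spread of normal gland does not enter a tumor against normal value. Besides neu and ras, the 38 arrays hold 6 models: C3(1)/SV40 T/t-antigen, MMTV-myc, MMTV-PyMT, p53-/-;transplant, p53fp/fp;WAP-cre and Brca1 Co/Co;MMTV-cre;p53. Below, neu tumors and ras tumors stand for the models, and arrays are named by model and replicate number.

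ERBB2, the product of the her2/neu gene, is a receptor tyrosine kinase that dimerises with its relatives and signals through adaptors to Ras, a small GTPase at the inner face of the membrane. Active Ras in turn engages the RAF, MEK and ERK kinases and PI3 kinase, and ERK raises its own feedback inhibitors, among them the DUSP phosphatases. The receptor and the GTPase thus lie on a shared route, and the comparison asks where tumors driven from either step differ. In the gland itself, prolactin acts through the transcription factor STAT5 to turn on milk protein genes in alveolar cells.

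A value is a log2 ratio of tumor over normal gland, centred on the median of its array. A difference is the neu mean minus the ras mean, given ± its standard error from limma. It passed where the p adjusted by Benjamini-Hochberg over 5768 genes was under 0.05. A ± beside a mean is an SD. The standard error comes from a fit of all 38 arrays, so the spread within the 6 other models enters it. Its median was 0.228, against 0.165 in a fit of the 10 arrays alone. The 10 arrays held 7444 to 7889 features with a value. Before centring their medians were -0.18 to 0.07 in neu and -0.15 to 0.63 in ras, with ras 3 the highest. Ras tumors varied more among themselves, with a median SD per gene of 0.28 against 0.21 in neu, and a correlation between arrays across genes, which are not independent replicates, of 0.39 to 0.86 within ras against 0.74 to 0.88 within neu. Erbb2, Erbb3 and Hras are not among the genes named on the arrays used here, so the transgenes gave no check of the labels. Of 10 epithelial markers 5 were measured, and Epcam (2.99 ± 0.29 in neu and 2.52 ± 0.63 in ras, SD, n = 5 each), Krt8 (1.49 ± 0.22 and 2.46 ± 0.77) and the junction protein gene Cldn7 (1.85 ± 0.59 and 1.34 ± 0.68) were on average above normal gland in both, as was the junction gene Cdh1 (0.88 ± 0.26 and 0.66 ± 0.56). The remaining marker, the milk protein gene Csn2, was on average below it in both (-1.24 ± 1.13 and -4.27 ± 0.43).

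Few genes separated the models. 13 of 5768 genes passed between them (0.225%), 6 higher in neu (0.104%) and 7 lower (0.121%), and 309 genes (5.36%) had an unadjusted p under 0.05. Set against normal gland, 1494 genes passed in neu (25.9%, 863 higher, 15%, and 631 lower, 10.9%) and 1088 in ras (18.9%, 575 higher, 9.97%, and 513 lower, 8.89%). Without centring, where 4 of 5 ras medians lie above 0, the ras split was 993 higher and 172 lower. Each of the 13 genes rests on 1 feature, and in each all neu values lay on 1 side of all ras values, as they did in 191 of all genes (3.31%; 1.98% with neu higher and 1.33% with neu lower). The count depends on single arrays: it was 6 without neu 1 or without ras 4, and 8 without neu 2 or without ras 1. The split moved with the scaling, to 3 higher and 10 lower on the values as deposited, where the median difference of all genes is -0.21, and to 30 higher and 22 lower after quantile normalization.

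**Figure D1:**
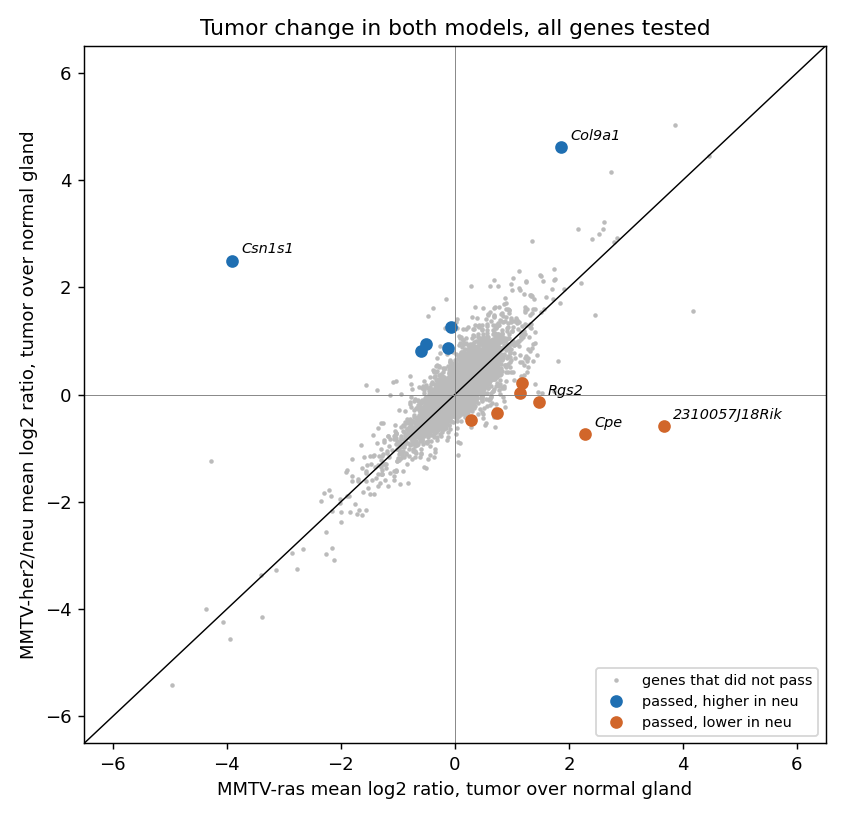
Mean log2 ratio of tumor over normal gland in ras tumors (x axis) and neu tumors (y axis) for 5768 genes, with the line of equal values. Most points lie along the line, and the 13 genes that passed between the models are coloured, with Csn1s1 far above the line at -3.90 and 2.50.

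The widest gap was in Csn1s1, the gene of alpha-S1 casein, a main protein of milk. In neu tumors it stood at 2.22, 2.53, 3.47, 1.89 and 2.38 (neu 1 to 5), above normal gland on every array. In ras tumors it stood at -2.26, -3.59, -4.23, -4.74 and -4.68 (ras 1 to 5), below normal gland on every array. The groups lay over 4 log2 units apart at their nearest arrays. The difference was 6.40 ± 0.70 (adjusted p = 1.99e-07), and each side also passed against normal gland, at 2.50 ± 0.59 (SD, n = 5) in neu and -3.90 ± 1.03 in ras.

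Beta casein, Csn2, the neighbour of Csn1s1 in the casein gene cluster, was below normal gland in both models. It stood at -0.99, -1.35, 0.55, -2.25 and -2.14 in neu and at -4.62, -4.44, -3.66, -4.00 and -4.64 in ras. The groups did not overlap, and neu 3, the array with the highest Csn1s1, was also the highest here. The difference of 3.04 ± 0.77 did not pass (adjusted p = 0.0935). Thus within neu tumors the means of these neighbours lay on opposite sides of normal gland, 2.50 for Csn1s1 and -1.24 ± 1.13 for Csn2, although only the first passed.

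The 250 bases before the start of 3 milk protein genes are shown. STAT5 is the known activator of such genes, and whether its activity differed between the models was not tested. The 3 are those, of 15 milk and alveolar genes with a window, that hold the palindrome bound by STAT factors. The sequences come from RefSeq, build GRCm38.p6, written 5′ to 3′ in the direction of the gene. Capitals mark TTCNNNGAA, the palindrome bound by STAT factors, and TGANTCA, the AP-1 motif.
Csn1s1, chr5:87665958-87666207, plus strand: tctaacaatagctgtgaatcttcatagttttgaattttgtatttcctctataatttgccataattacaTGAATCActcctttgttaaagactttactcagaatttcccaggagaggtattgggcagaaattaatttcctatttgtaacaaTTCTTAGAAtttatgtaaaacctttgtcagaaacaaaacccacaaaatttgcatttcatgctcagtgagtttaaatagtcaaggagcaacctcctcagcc
Csn2, chr5:87699426-87699675, minus strand: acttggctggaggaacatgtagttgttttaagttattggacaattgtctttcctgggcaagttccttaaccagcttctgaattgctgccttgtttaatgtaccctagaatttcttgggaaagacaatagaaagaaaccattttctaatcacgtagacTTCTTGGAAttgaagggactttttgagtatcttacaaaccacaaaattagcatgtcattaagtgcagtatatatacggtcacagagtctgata
Glycam1, chr15:103565082-103565331, minus strand: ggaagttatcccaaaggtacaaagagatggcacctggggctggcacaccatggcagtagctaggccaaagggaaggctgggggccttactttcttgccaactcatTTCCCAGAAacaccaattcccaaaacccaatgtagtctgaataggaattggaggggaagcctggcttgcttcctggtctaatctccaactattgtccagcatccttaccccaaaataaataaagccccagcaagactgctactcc
The STAT palindrome begins at base -100 from the start in Csn1s1, -93 in Csn2 and -145 in Glycam1, and Csn1s1 also holds the AP-1 letters. Glycam1, a whey protein gene, differed by 0.27 ± 0.43 and did not pass. On either strand of all 32851 windows of this length the STAT palindrome occurred in 7.02%, TGANTCA in 6.75% and the ETS motif CCGGAANT in 4.36%. Of the 13 genes 11 had a window, some more than 1. The palindrome was in windows of 2 (Csn1s1 and Igfals), TGANTCA in windows of 2 (Csn1s1 and Gfra4), and the ETS motif in none. Among 15 milk and alveolar genes with a window the counts were 3, 3 and 0. The 3 with the palindrome are the genes shown, and the windows of Plin2, Stat5a, Mfge8 and Csn1s2a did not hold it. The STAT motif was chosen after the values were seen, and a match of letters is a description of the sequence.

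Stat5a, whose protein carries the prolactin signal to the milk protein genes, was higher in neu tumors. It stood at 0.68, 0.93, 1.48, 0.64 and 0.60 in neu and at -0.63, 0.22, -0.22, -0.05 and 0.11 in ras. Neu 3 was the highest, and the ras arrays scattered around normal gland. The difference was 0.98 ± 0.21 (adjusted p = 0.029). Plin2, which coats the lipid droplets that become milk fat globules, stood at 0.80, 0.83, 0.79, 0.85 and 0.76 in neu and at -0.88, -0.40, -0.98, -0.48 and -0.20 in ras. The neu arrays were nearly equal, with an SD of 0.03, and the difference was 1.39 ± 0.31 (adjusted p = 0.029). Both calls are near the threshold. That of Stat5a was lost in 6 of the 10 fits that each left out an array (without neu 1, 2 or 3 or ras 1, 3 or 4), with an adjusted p up to 0.161. That of Plin2 was lost in 9, all but the fit without ras 5, with an adjusted p up to 0.112. On the values as deposited they had an adjusted p of 0.372 and 0.0767. In the fit of the 10 arrays alone the adjusted p was 0.0451 for Stat5a and 0.000876 for Plin2. The standard error of the Plin2 difference there was 0.15.

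Of 30 milk and alveolar genes listed, 18 were measured. The list was chosen with earlier results of these data known. 3 passed, all higher in neu (Csn1s1, Stat5a and Plin2), where 0.104% of all genes passed as higher in neu. The median difference was 0.83 against 0.01 over all genes. Without neu 1, 2 or 3, or ras 1, 3 or 4, the count was 1, as it was on the values as deposited and within the range of array database numbers that holds both models. It was 6 after quantile normalization, in the fit of the 10 arrays alone and with array weights (where Lpo also passed as lower in neu), and 5 with the number range as a factor, and in each of these 4 fits Csn2, Mfge8 and Csn1s2a passed. An unadjusted p under 0.05 was reached by 9 members higher in neu and 1 lower, against 3.31% and 2.05% of all genes. The mean of the 18 genes was 0.49 to 1.06 on the neu arrays and -0.53 to -0.18 on the ras arrays. The adipocyte, skeletal muscle, smooth muscle, endothelial, fibroblast, lymphocyte, macrophage and neutrophil marker lists, measured the same way, overlapped between the models. For adipocytes, of which 14 markers were measured, that mean was -2.42 to -1.68 in neu and -2.43 to -1.65 in ras. 13 of these markers fell against normal gland in each model, where 10.9% of all genes fell in neu and 8.89% in ras. The direction of the ratios was read from the same markers, so their fall is not a separate result. In RNA of whole tissue, fewer cells of a type and less RNA per cell cannot be told apart.

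**Figure D2:**
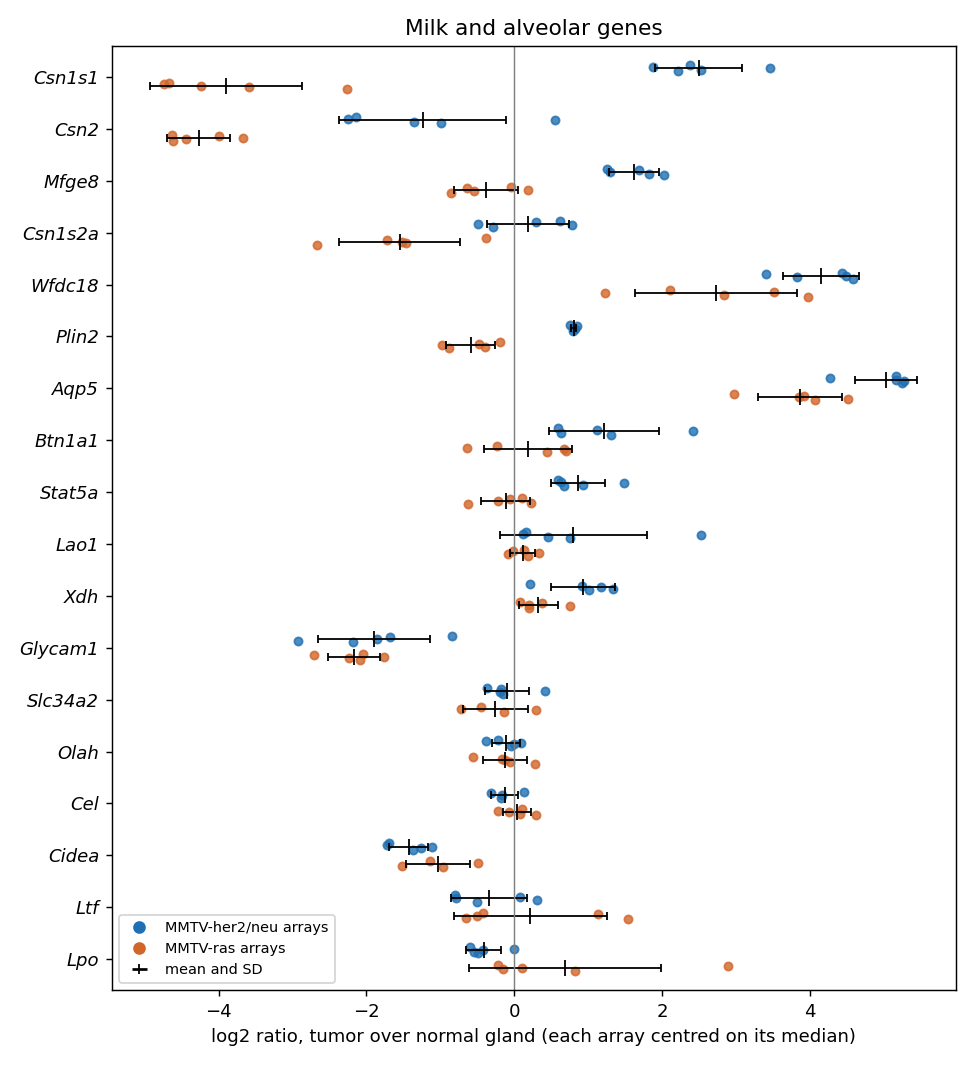
Log2 ratio of tumor over normal gland on each array for the 18 measured milk and alveolar genes, neu in blue and ras in orange, with the mean and SD in black (n = 5 per model, 4 where an array has no value). Csn1s1, Csn2, Mfge8, Plin2 and Stat5a show no overlap between the models, as do 1.98% of all genes with neu higher. Lpo lies the other way, with ras 4 at 2.90.

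3 genes of the list whose proteins sit on the milk fat globule did not pass. Mfge8, lactadherin, stood at 2.03, 1.83, 1.29, 1.69 and 1.26 in neu and at -0.86, -0.54, 0.18, -0.64 and -0.04 in ras, with no overlap (difference 2.00 ± 0.48, adjusted p = 0.069). Btn1a1, butyrophilin, had means of 1.22 ± 0.74 and 0.19 ± 0.60, and xanthine dehydrogenase, Xdh, of 0.93 ± 0.43 and 0.33 ± 0.27. For both the groups overlapped (adjusted p = 0.83 and 0.886).

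Other secretory genes gave mixed values. Aqp5, a water channel, was raised in both, at 5.03 ± 0.42 in neu and 3.87 ± 0.56 in ras, and so was Wfdc18, a secreted gland protein, at 4.15 ± 0.51 and 2.73 ± 1.10. Neither difference between the models passed (1.16 ± 0.68 and 1.42 ± 0.82). Lpo, lactoperoxidase, had the opposite order, -0.41 ± 0.24 in neu and 0.69 ± 1.30 in ras, and its ras mean rests largely on ras 4 (2.90). Csn1s2a, another casein gene, had 2 features that disagreed: 1 differed by 3.00, from -2.69 ± 1.02 in ras to 0.32 ± 0.99 in neu, and the other by -0.10. The first passed in limma when features were tested singly (adjusted p = 0.0424). The other lay near normal gland in both, at 0.05 ± 0.30 in neu and 0.15 ± 0.49 in ras (n = 4). Averaged over both features the gene did not pass (adjusted p = 0.169).

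3 further genes were higher in neu tumors. Col9a1, a chain of the cartilage collagen IX, was far above normal gland in neu, at 4.89, 4.53, 4.16, 4.48 and 4.99, and less so in ras, at 1.68, 1.48, 2.64, 0.98 and 2.53. Both models passed against normal gland and the difference between them was 2.75 ± 0.57 (adjusted p = 0.0196). Igfals encodes the acid-labile subunit that keeps IGF1 in its circulating complex. It stood at 0.94, 1.43, 1.27, 1.13 and 1.57 in neu and at -0.35, 0.12, -0.06, -0.26 and 0.20 in ras. The groups did not overlap, and the difference was 1.34 ± 0.15 (adjusted p = 1.99e-07, and 0.00106 in the fit of the 10 arrays alone). Iigp1, an interferon-inducible GTPase, stood at 1.70, 1.14, 0.43, 0.99 and 0.46 in neu and at -0.57, -0.83, -0.75, -0.57 and 0.22 in ras, where ras 5 approached the neu arrays. Its difference was 1.44 ± 0.30 (adjusted p = 0.0217). When single arrays were left out the call of Igfals held each time, that of Col9a1 was lost without neu 1, 2 or 5 or ras 1, 2 or 4 (adjusted p up to 0.0783), and that of Iigp1 without neu 1, 2 or 4 or ras 1, 2, 3 or 4 (up to 0.124).

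**Figure D3:**
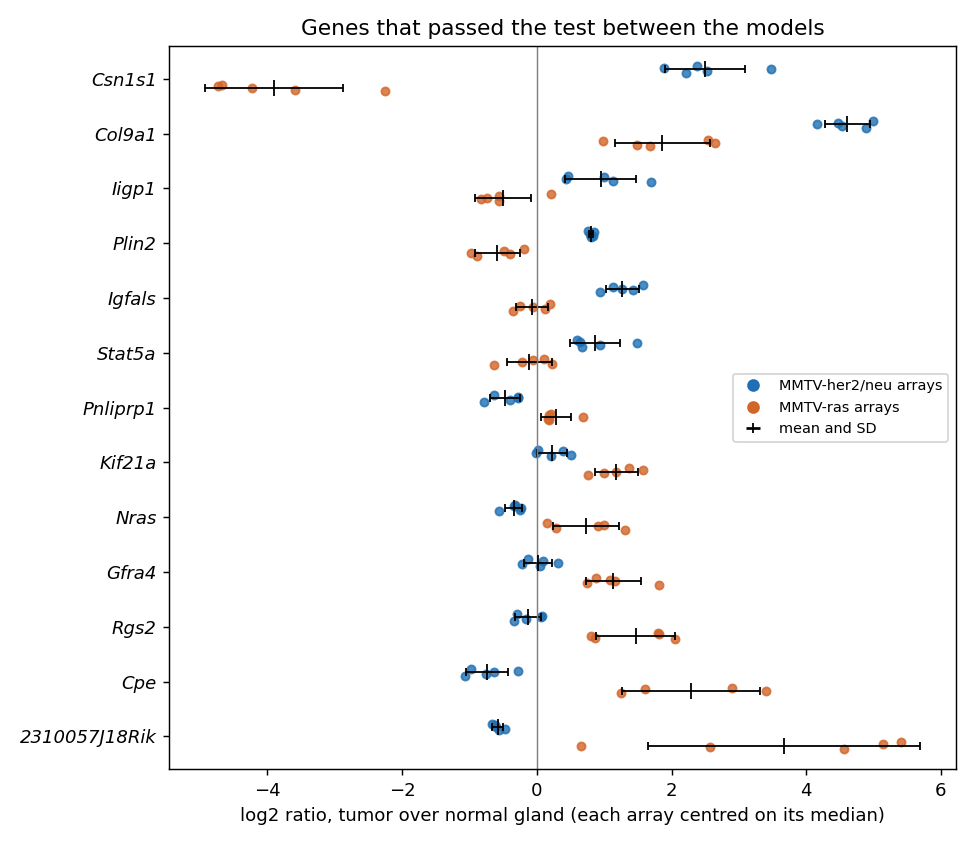
Log2 ratio of tumor over normal gland on each array for the 13 genes that passed, neu in blue and ras in orange, with the mean and SD in black (n = 5 per model, 4 for Cpe in ras). In every row the colours are apart, and the widest scatter is that of 2310057J18Rik in ras, from 0.66 to 5.41.

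Among the genes lower in neu, 2310057J18Rik, a protein-coding gene known by its clone name, was raised in ras tumors. Its ras values were 4.57, 2.57, 0.66, 5.14 and 5.41, and its neu values -0.56, -0.47, -0.61, -0.62 and -0.66. Ras 3 stood far below the other ras arrays and still above every neu array. The difference was -4.25 ± 0.63 (adjusted p = 0.000182). Cpe, carboxypeptidase E, which trims peptide hormone precursors, stood at 1.25, 3.41, 1.60 and 2.89 in ras 2 to 5, with no value for ras 1, and at -1.07, -0.75, -0.63, -0.27 and -0.98 in neu. The groups were over 1 log2 unit apart, with a difference of -3.03 ± 0.50 (adjusted p = 0.000939).

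Rgs2 and Gfra4 were also higher in ras tumors. Rgs2, which speeds the shut-off of heterotrimeric G proteins, stood at 2.05, 0.87, 0.81, 1.81 and 1.81 in ras and at -0.34, -0.17, 0.06, 0.07 and -0.30 in neu. Ras 2 and ras 3 were lower than the other ras arrays, and the neu arrays lay around normal gland (difference -1.61 ± 0.27, adjusted p = 0.000939). Gfra4, a receptor subunit for a ligand of the GDNF family, stood at 1.81, 0.75, 1.16, 1.08 and 0.88 in ras and at 0.04, -0.22, 0.31, 0.10 and -0.13 in neu (difference -1.12 ± 0.20, adjusted p = 0.00209). The calls of 2310057J18Rik, Cpe, Rgs2 and Gfra4 held in each of the 10 fits that left out an array.

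Nras, a Ras GTPase itself, stood at 1.31, 0.29, 0.91, 1.00 and 0.15 in ras and at -0.56, -0.25, -0.24, -0.34 and -0.33 in neu. All ras arrays were above normal gland and all neu arrays below it, but ras 2 and ras 5 only slightly above. The difference was -1.07 ± 0.22 (adjusted p = 0.0133), and the call was lost without neu 1, ras 1 or ras 4 (adjusted p up to 0.0777). Nras is a close relative of Hras, and whether its feature also bound that transcript or that of the transgene was not tested. Kif21a, a kinesin motor, had means of 1.18 ± 0.32 in ras and 0.22 ± 0.22 in neu (difference -0.95 ± 0.19, adjusted p = 0.0168). Pnliprp1, a lipase-related protein, had means of 0.29 ± 0.22 and -0.48 ± 0.23 (difference -0.76 ± 0.17, adjusted p = 0.0361), with ras 3 at 0.68 and the other ras arrays at 0.17 to 0.21. The call of Kif21a was lost without neu 1, 3 or 5 or ras 4 or 5 (adjusted p up to 0.0756), and that of Pnliprp1 in 8 of the 10 fits, all but those without neu 3 or neu 4 (up to 0.159). The arrays carry database numbers, which no label calls a batch, and all neu arrays share a number range with ras 1, 2 and 4. Within that range the differences of 8 genes passed, and Cpe, with 2 ras values, could not be tested. Those that did not pass were Plin2 (1.39, adjusted p = 0.0846), Stat5a (1.02, 0.0735), Kif21a (-0.89, 0.0846) and Pnliprp1 (-0.65, 0.184).

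A feature with no gene in the probe table, 650427_1, showed the smallest adjusted p when each of 7948 features was tested on its own. It stood at 2.88, 2.26, 3.03, 3.10 and 2.25 in ras and at -1.32, -0.89, -0.32, -0.43 and -0.37 in neu. The difference was -3.37 ± 0.23 (adjusted p = 5.01e-13), and the means of the other 6 models lay between -0.58 and 0.51. It was singled out after its values were seen.

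Along the route from receptor to GTPase few genes separated the models. Of 9 measured ERBB receptors, ligands and adaptors none passed in limma. At an unadjusted p under 0.05, 1 was higher and 2 were lower in neu, against 3.31% and 2.05% of all genes. The higher gene was Egf, which encodes a ligand of EGFR (0.57 ± 0.23), and the lower were Hbegf, another ligand (-0.66 ± 0.27), and Eps8. Eps8, a substrate of EGFR, had means of -0.60 ± 0.21 in neu and 0.70 ± 1.05 in ras (adjusted p = 0.261), and passed in 3 of 19 alternative fits. Egfr differed by 0.14 ± 0.20, Grb7, an adaptor of ERBB2, by 0.28 ± 0.24, and the ligand gene Tgfa by 0.15 ± 0.40. Of 18 Ras GTPases and regulators 1 passed, Nras, against 0.225% of all genes. In this list 3 were higher and 1 was lower in neu at an unadjusted p under 0.05, against 3.31% and 2.05% of all genes. Rassf1, a Ras-association domain protein, had means of 1.23 ± 0.49 in neu and 0.03 ± 0.64 in ras (n = 4, difference 1.20 ± 0.32, adjusted p = 0.132). Of 14 genes of the MAP kinase cascade none passed and none had an unadjusted p under 0.05, against 5.36% of all genes. Their differences lay between -0.27 and 0.36, with Braf at -0.01 ± 0.16 and Map2k1 at 0.14 ± 0.25.

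Of 17 measured ERK feedback and output genes none passed between the models. 1 had an unadjusted p under 0.05, where 5.36% of all genes did. Against normal gland 8 of the 17 rose in neu, where 15% of all genes did, and 9 in ras, where 9.97% did, and none fell in either. Dusp6, the phosphatase that ERK induces against itself, stood at 2.84 ± 0.32 in neu and 2.79 ± 0.65 in ras, a difference of 0.05 ± 0.32. Dusp7 stood at 1.59 ± 0.51 and 1.36 ± 0.29, the early response gene Ier3 at 1.96 ± 0.37 and 1.71 ± 0.42, and Myc at 0.58 ± 0.12 and 0.50 ± 0.14. Ccnd1, cyclin D1, stood at 1.86 ± 0.72 in neu and at 1.32 ± 0.51 in the 3 ras arrays with a value. The 95% intervals of the differences were -0.38 to 0.54 for Myc and -0.42 to 1.49 for Ccnd1, so that sizeable differences in cyclin D1 remain compatible with these arrays. Of 16 PI3 kinase, AKT and mTOR genes none passed, with Akt1 at 1.25 ± 0.31 in neu and 0.73 ± 0.23 in ras. 2 were higher in neu at an unadjusted p under 0.05, against 3.31% of all genes. Of 11 immediate early genes none passed, and at that p 1 was higher and 1 lower in neu (2.05% of all genes were lower). Nr4a1 had means of 0.63 in neu and 1.81 in ras (difference -1.18, adjusted p = 0.191, and 0.0432 in the fit of the 10 arrays alone). The immediate early list had a passing gene in 3 of 19 alternative fits.

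**Figure D4:**
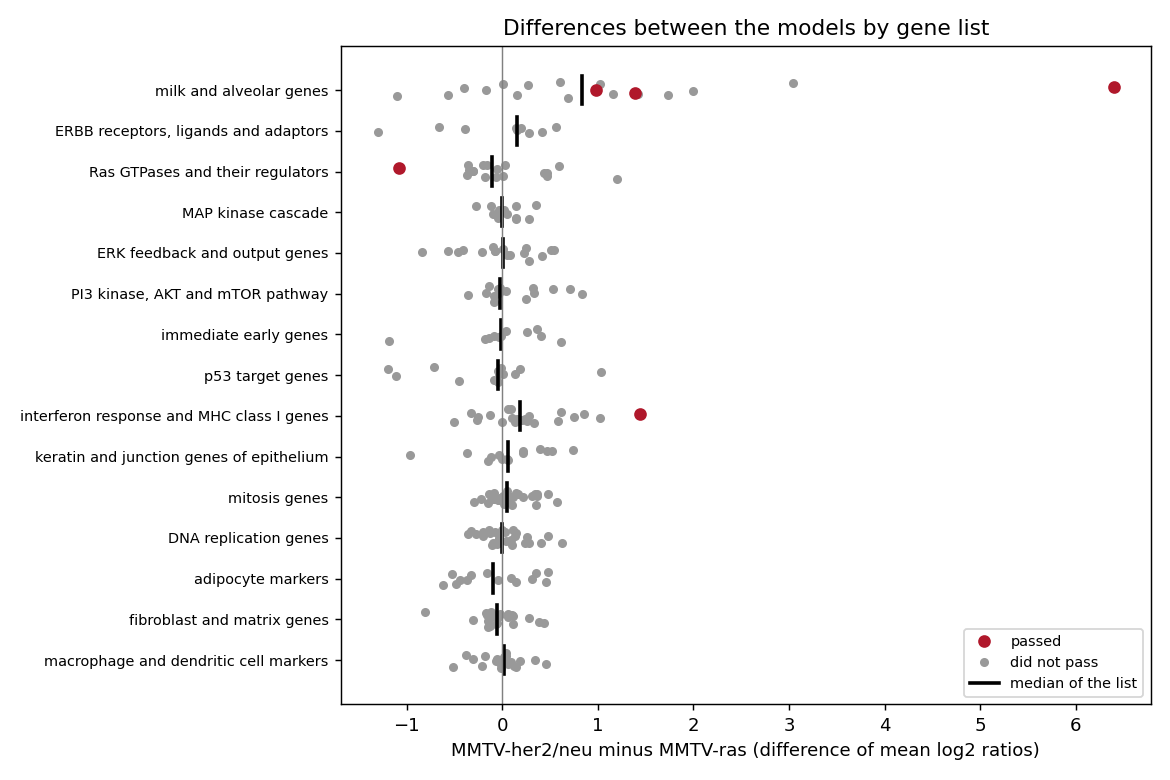
Difference between the models (neu mean minus ras mean, log2) for the measured members of 15 of the 34 gene lists, a point per gene, with the list median as a bar and genes that passed in red. The points of most lists centre near 0, and the milk and alveolar list has its median at 0.83 and 3 red points.

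No cell division gene passed between the models. None of 32 mitosis and none of 27 DNA replication genes passed or had an unadjusted p under 0.05, where 5.36% of all genes did. The median differences were 0.05 and 0.00, and Mki67 differed by -0.22 ± 0.21 (95% interval -0.65 to 0.22). Of 22 interferon response and MHC class I genes 1 passed, Iigp1, against 0.225% of all genes. In this list 3 were higher and 1 was lower in neu at an unadjusted p under 0.05, against 3.31% and 2.05% of all genes. Irf9, a subunit of the interferon-activated factor ISGF3, had means of 1.01 ± 0.35 in neu and 0.15 ± 0.35 in ras (adjusted p = 0.41). Of 13 p53 target genes none passed. At an unadjusted p under 0.05, 1 was higher and 3 were lower in neu, against 3.31% and 2.05% of all genes. The cell cycle inhibitor Cdkn1a had means of 0.21 ± 0.19 in neu and 1.40 ± 0.49 in ras (adjusted p = 0.635). The stress gene Gadd45a had means of -0.23 ± 0.25 and 0.88 ± 0.49 (n = 4) (adjusted p = 0.16). The groups did not overlap in either, as in 1.33% of all genes with neu lower. In the fit of the 10 arrays alone the adjusted p was 0.0235 for Cdkn1a and 0.0451 for Gadd45a. The highest difference among the p53 target genes was 1.03, with neu higher. Over all 34 lists 5 of 584 measured genes passed, where 0.225% of all genes did. They were the 3 of the milk list, Nras and Iigp1.

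Next in order of p among the genes that did not pass, and so chosen after their values were seen, were Chil1, Mfge8, F3 and Ramp1. Chil1, a chitinase-like secreted protein, had means of 1.57 ± 0.40 in neu and 4.18 ± 1.31 in ras (difference -2.62 ± 0.62, adjusted p = 0.069). F3, tissue factor, had means of 2.02 ± 0.61 and 0.29 ± 0.89 and overlapped (adjusted p = 0.0807). Ramp1, a partner of the calcitonin-receptor-like receptor, had means of 1.79 ± 0.88 and -0.15 ± 0.29 and did not overlap (adjusted p = 0.0807). Senp2, Primpol and Ech1 came next and are not described here. Gata3, a luminal transcription factor that followed them, had means of 2.02 ± 0.13 and 0.62 ± 0.86 (n = 4 in ras, adjusted p = 0.0935).

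Against the mean of the other 3 FVB models (C3(1)/SV40 T/t-antigen, n = 5, MMTV-myc, n = 4, and MMTV-PyMT, n = 5), 58 genes passed for neu (1.01%) and 36 for ras (0.624%), and these contrasts share arrays with each other. The 13 genes were chosen on the same neu and ras arrays, so their values here are a description and no further test. The neu and ras values were 5.12 ± 0.58 and -1.28 ± 0.58 for Csn1s1, 1.40 ± 0.12 and 0.07 ± 0.12 for Igfals, -0.03 ± 0.22 and 1.58 ± 0.22 for Rgs2, and -0.08 ± 0.18 and 0.99 ± 0.18 for Nras. For Cpe they were -2.39 ± 0.39 and 0.64 ± 0.42.

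Across models, Csn1s1 was below normal gland in every mean but that of neu, from -1.09 ± 1.47 in p53-/-;transplant tumors to -4.12 ± 0.55 in C3(1)/SV40 T/t-antigen tumors. Col9a1 stood at 4.42 ± 0.86 in MMTV-myc tumors, within the spread of neu tumors (4.61 ± 0.34). 2310057J18Rik was also high in MMTV-PyMT tumors, at 2.50 ± 1.90 with the lowest array at -0.23, and its means in the other 5 models lay between -0.37 and -0.10. Cpe stood at 2.47 ± 0.74 in MMTV-myc and 2.00 ± 1.02 in C3(1)/SV40 T/t-antigen tumors, within the spread of ras tumors (2.29 ± 1.03).

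**Figure D5:**
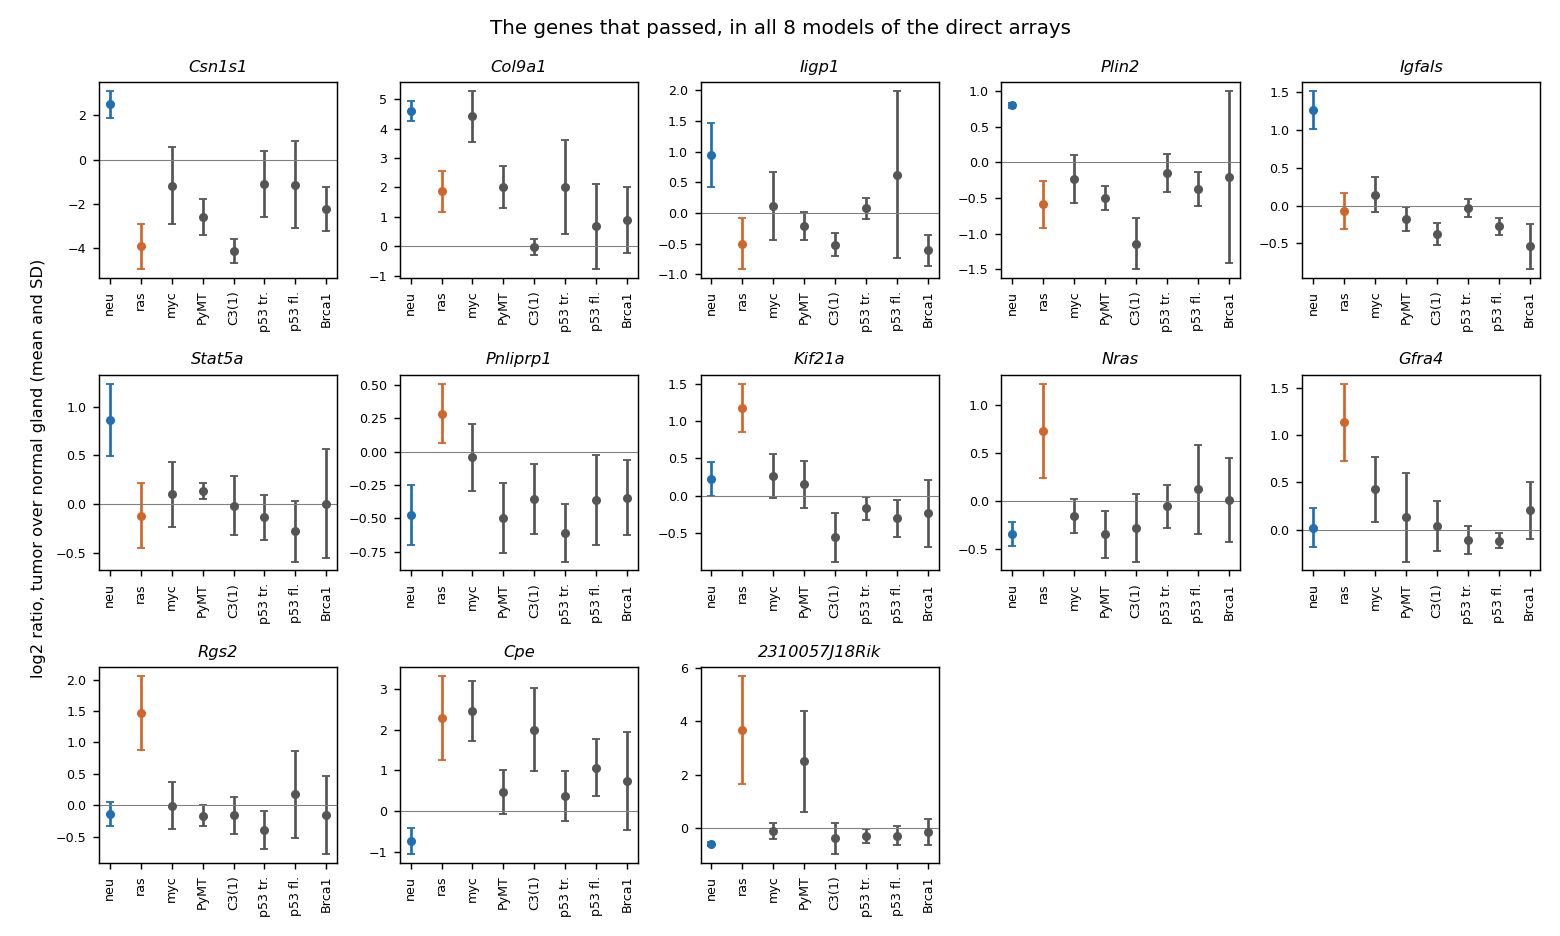
Mean and SD of the log2 ratio of tumor over normal gland for the 13 genes in the 8 models of the direct arrays (n = 3 to 5 per point; p53 tr. is p53-/-;transplant, p53 fl. is p53fp/fp;WAP-cre, Brca1 is Brca1 Co/Co;MMTV-cre;p53). The 6 genes higher in neu have their highest mean there (blue), and 6 of the 7 lower in neu have theirs in ras (orange), while that of Cpe is in MMTV-myc.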

How the data were processed

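The deposited values are log2 ratios, 1 per feature and array, made by the authors. Per the labels, total RNA was labelled with Cy3 (normal gland) and Cy5 (tumor), with no swapped arrays, which leaves any dye bias in a tumor against normal value. Image analysis, background correction and filters are not given in the sources used here. Log base and direction are not stated. The series text gives 2638 features for its interaction rule; that rule, applied here, gave 2638 with base 2, 3770 with natural log and 4174 with log10. Direction was read as tumor over normal: all 14 adipocyte markers then lie below 0 in both models. Of 9596 features, 7486 have 1 gene symbol (7395 matched by gene ID to RefSeq, GRCm38.p6), 483 several and 1627 none. Genes were taken from features with 1 symbol, averaged per gene.

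limma 3.58.1 (lmFit, eBayes; R 4.3.3) was fitted to 8 model means over all 38 direct arrays, for genes with at least 3 values in each of the 2 models. The number of arrays limits precision, and without intensities weak spots could not be told apart. The named genes were up to 12 per direction that passed with no overlap, up to 3 per list, and 9 fixed genes. The array database ID in the labels, which is not labelled as a batch, was split at gaps of 100 or more: all neu arrays and ras 1, 2 and 4 share a range. Alternatives were scaling, filters, arrays used, weights, ID range and replicate number. Members and lists were chosen with earlier results of these data known. The code was tested on simulated data.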

Additional observations from a re-analysis of the deposited data

Results flagged for a closer look

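2 of 33 groups of arrays examined held an array far from the others, where chance gives about 1 in 20. For Iigp1 this was ras 5 at 0.22, with the other ras arrays between -0.83 and -0.57. For Pnliprp1 it was ras 3 at 0.68, with the others between 0.17 and 0.21.

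The tumor change differed between the models by the limma test in 13 genes, with differences (neu minus ras, log2) of 6.40 for Csn1s1, 2.75 for Col9a1, 1.44 for Iigp1, 1.39 for Plin2, 1.34 for Igfals and 0.98 for Stat5a on the side of neu. On the side of ras they were -4.25 for 2310057J18Rik, -3.03 for Cpe, -1.61 for Rgs2, -1.12 for Gfra4, -1.07 for Nras, -0.95 for Kif21a and -0.76 for Pnliprp1.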

How the results depend on the processing

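The 13 genes that passed kept their direction under each of 19 alternative fits in which they were tested (Cpe in 17), and Csn1s1, Igfals, 2310057J18Rik, Gfra4 and Rgs2 passed in all 19. The number of genes that passed was 52 with quantile normalization, 47 in a fit of the 10 arrays alone (30 higher and 17 lower, with all 13 among them and a median standard error of 0.165 against 0.228), 26 with the ID range as a factor, 102 with array weights, 28 at an unadjusted p under 0.001 with at least a 2-fold difference, and 6 to 14 when each array was left out in turn. It was 13 as deposited (9 of them the same genes), 17 within the shared ID range (8 of the 12 original genes that could be tested) and 17 of 7948 features tested singly. The passing genes in the 34 lists numbered 5, and 2 as deposited, 13 with quantile normalization, 14 in the fit of the 10 arrays alone, 8 with the ID range, 19 with array weights and 1 to 6 with an array left out. ERK output, MAP kinase, mitosis and replication lists had no passing gene in any of these fits. Against normal gland, ras tumors had 1088 passing genes in the main fit and 677 to 1038 with a ras array left out (677 without ras 1, 694 without ras 4). Neu tumors had 1494 in the main fit and 1004 to 1221 with a neu array left out. In the fit of the 10 arrays alone ras tumors had 1868, a count given here for ras only, so it does not compare the models. The leave-one-out and 10-array counts against normal gland were added after the data were seen. Deviations of same-numbered arrays correlated at 0.18, -0.02, -0.18, -0.14 and 0.25, which does not settle whether the replicate numbers pair any samples. With the replicate number as a block, 16 genes passed, 7 of them among the 13, and only numbers 1 and 5 matched best with themselves. The causes of these changes were not tested.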
